A study of Homo sapiens with 12 samples.

Results

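The genes described here encode ligands and receptors first known from the guidance of growing axons, measured in A375 cells, an established line from a human metastatic melanoma. They were all protein-coding genes whose current symbol begins with SEMA, PLXN, EFNA, EFNB, EPHA, EPHB, SLIT or ROBO, without the SLITRK genes, together with *NRP1* and *NRP2*. The count table of 23705 genes held 60 of them, namely 20 semaphorins, 9 plexins, 2 neuropilins, 5 ephrins of the A class, 3 ephrins of the B class, 9 EphA receptors, 5 EphB receptors, 3 Slits and 4 Robos. The cells, at passages 30 to 32, were grown for 24 h with DMSO vehicle, with 5 μM RGZ (rosiglitazone, an agonist of the nuclear receptor PPARγ), with 2 μM T0070907 (an antagonist of that receptor), or with 5 μM RGZ and 2 μM T0070907 together, and all compounds were dissolved in DMSO. Each condition had 3 libraries, 1 from each of 3 independent experiments, in which the RNA of technical replicates had been pooled. One cell line was used, so nothing here describes other melanoma cells.

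Semaphorins are secreted or membrane-bound ligands that act through plexins, and most of the secreted class 3 members bind a neuropilin as co-receptor. Ephrins are tethered to the cell surface, by a lipid anchor in the A class and by a transmembrane segment in the B class, and bind the Eph receptor tyrosine kinases of neighbouring cells. Slits are secreted proteins that bind Robo receptors. All these systems act on the actin cytoskeleton and on adhesion, and in melanocytes and other neural crest derivatives they are known for steering cell migration and for contact repulsion.

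The libraries held between 8319455 and 11375227 counts, so that the detection floor, set at a count of 3, lay from 0.258 to 0.371 CPM (the count relative to the library's size after scaling by edgeR's TMM method). This floor covers counting error only. The p-values measure the spread between libraries of a condition, which came from 3 experiments. Where the experiment was in the model, they measure the spread left after differences between experiments were taken out. Of the 10 melanocyte lineage markers looked at, *SOX10* averaged 311 CPM and *MITF* 45.9 CPM in vehicle. *TYR* had no count in any library, *DCT* at most 1 count, *MLANA* at most 6 counts and *PMEL* and *TYRP1* at most 13 counts. *S100B* had 23.4, 15.1 and 38.5 CPM in vehicle and 10.2, 6.62 and 21.8 CPM with RGZ in experiments 1, 2 and 3. With RGZ *SOX10* and *MITF* were also lower in each experiment, *PAX3* was higher in each and *S100A1* went both ways. Markers of other cell types were looked at as well. In vehicle the summed level was 0.706 to 1.36 CPM for 4 blood cell genes (*PTPRC*, *CD3E* and *CD79A* never above 3 counts), 1.06 to 3.33 CPM for 4 endothelial genes, 13.1 to 34.0 CPM for 4 fibroblast genes and 14.3 to 33.4 CPM for 3 keratinocyte genes (*KRT1* at 0 in every library, *KRT14* with a mean of 20.8 CPM). With RGZ the fibroblast sum was 9.24 to 21.2 CPM and the keratinocyte sum 6.51 to 16.6 CPM, while 2 Schwann cell genes summed to 36.1 to 91.1 CPM in vehicle and 23.9 to 50.5 CPM with RGZ. The sum of 3 neuron genes was 6.94 to 10.4 CPM in vehicle and 6.97 to 15.5 CPM with RGZ. Of these, *SNAP25* was higher and *SYT1* lower with RGZ in each experiment. The part of these shifts in the results was not tested. The known PPARγ target *ANGPTL4* lay between 3.41 and 8.35 CPM in vehicle and between 384 and 451 CPM with RGZ. It lay between 0.358 and 0.948 CPM with T0070907. With the combination it had 5.68, 10.8 and 41.6 CPM in experiments 1, 2 and 3. Of other genes known to respond to PPARγ agonists, *PDK4* had 4.69, 9.26 and 20.5 CPM with the combination. *PLIN2* had 362, 454 and 737 CPM there and *FABP4* 1.11, 0.947 and 2.68 CPM. In vehicle *ANGPTL4* had 3.41, 5.24 and 8.35 CPM, *PDK4* 7.95, 8.92 and 11.6 CPM and *PLIN2* 365, 389 and 405 CPM.

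Of the 60 genes, 48 passed the filter on low counts and were tested, and 12 did not. The untested genes were *EPHA1*, *EPHA5*, *EPHA6*, *EPHA8*, *EPHA10*, *EFNA2*, *SEMA4A*, *SEMA5A*, *SEMA5B*, *SEMA6D*, *SLIT1* and *SLIT3*. Their highest count in any library was 14, which *SEMA5A*, a transmembrane semaphorin, reached in experiment 2 with RGZ. Its counts were 6, 14 and 3 with RGZ and 2, 0 and 1 in vehicle in experiments 1, 2 and 3. All 9 plexins, both neuropilins, all 5 EphB receptors and all 4 Robos were tested, but only 4 of 9 EphA receptors and 1 of 3 Slits.

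Per kb of the longest annotated transcript, *EPHA2*, the receptor for ephrin-A1, stood highest of all guidance genes in vehicle, at 118 CPM per kb. It carried 78.6% ± 5.11 (SD, n = 3) of the summed per-kb level of the Eph receptors. Next in order of mean level were *SEMA3B*, a secreted class 3 semaphorin, at 52.3 CPM per kb, *SEMA7A*, a lipid-anchored semaphorin, at 22.8, and *PLXNB2*, a receptor for class 4 semaphorins, at 21.3. *NRP1*, the co-receptor for *SEMA3A* and *VEGFA*, had 16.1 CPM per kb, against 5.80 for *NRP2*. Among the other classes the highest were *EPHB4*, a receptor for ephrin-B2, at 13.6, *EFNA1* at 11.1, *EFNB2* at 9.09, *ROBO1* at 7.83 and *SLIT2*, the only Slit tested, at 1.92 CPM per kb.

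Neighbours in this order did not always separate. *EPHA2* stood apart from *EPHA3* in all 3 vehicle libraries (lowest 99.6 against highest 8.02 CPM per kb), and *SEMA3B* from *SEMA7A* (41.3 against 27.1). *ROBO1* and *ROBO4*, which is best known from endothelium, lay close but did not overlap (7.50 against 6.92 CPM per kb). *SEMA7A* overlapped *SEMA4C*, *EFNA1* overlapped *EFNA4*, *EPHB3* overlapped *EPHB1*, and the semaphorins from *SEMA4C* through *SEMA3C*, *SEMA6B*, *SEMA3A* and *SEMA3F* to *SEMA4B* each overlapped the next. *ROBO2*, *EPHB6* and *PLXNA4* were the lowest tested genes, at 0.167, 0.150 and 0.0858 CPM per kb.

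**Figure D1:**
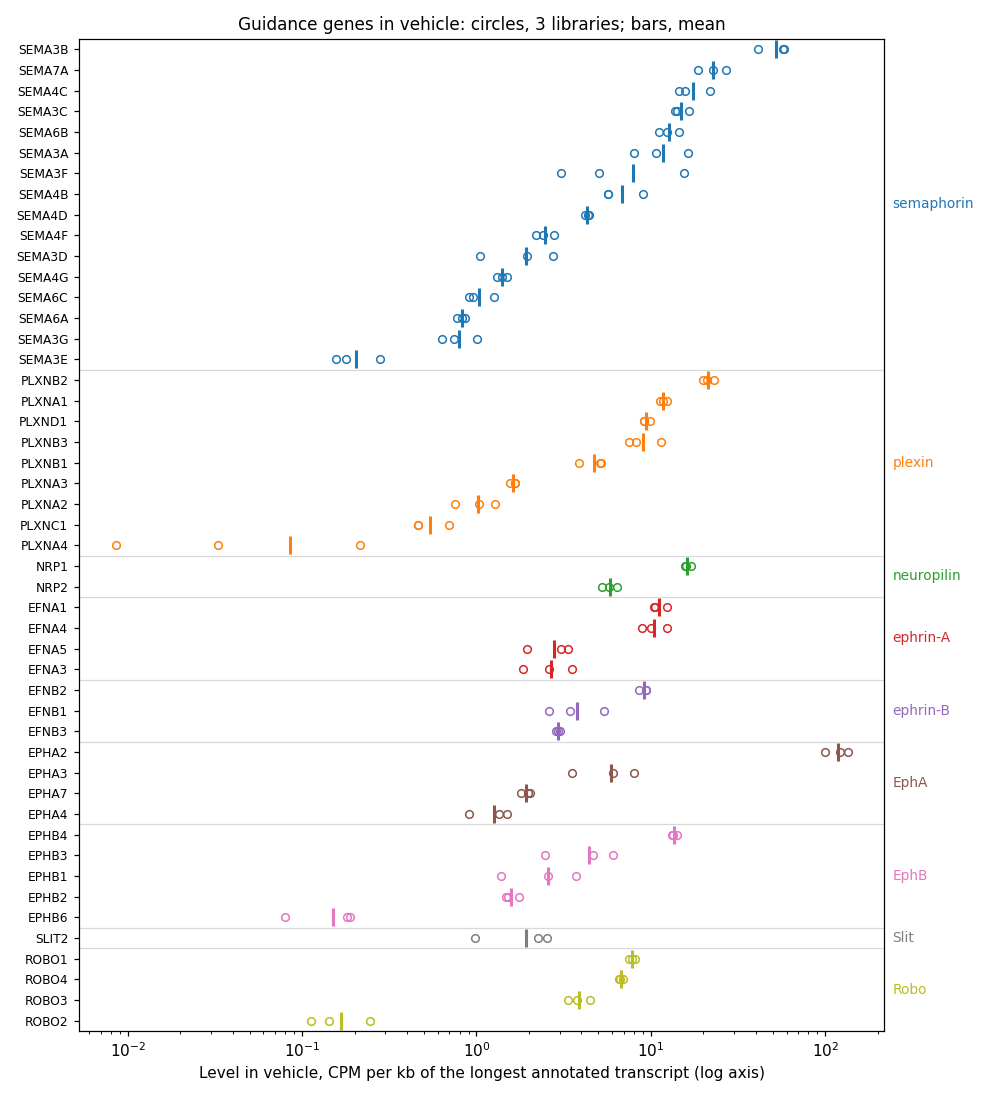
Level of the 48 tested guidance genes in vehicle, in CPM per kb of the longest annotated transcript on a log axis, grouped by class. Circles are the 3 vehicle libraries and bars their mean; *EPHA2* lies at the far right at 118 CPM per kb and *PLXNA4* at the far left at 0.0858 CPM per kb.

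RGZ was compared with vehicle to ask which guidance genes respond to activation of PPARγ. Without regard to the experiment a library came from, 1 of the 48 tested genes, *EPHA7*, was called by edgeR's quasi-likelihood test at a Benjamini-Hochberg adjusted p under 0.05 (2.08%, against 1.24% of all 13522 genes tested), and DESeq2 called 3. With the experiment number as a replicate block, 16 were called (33.3%, against 9.30% of all genes), of which 6 rose and 10 fell. All 16 had the same direction in each of the 3 experiments, which the block itself favours, so it is no separate support. The unadjusted p was under 0.05 for 13 of the 48 genes without the block (27.1%, against 10.5% of all genes) and for 25 with it (52.1%, against 22.1%). The median log2 fold change of the 48 genes was -0.08, and that of all tested genes was -0.01.

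By class, the called genes were 5 of 16 tested semaphorins (3 higher, 2 lower), 3 of 9 plexins (all lower), 1 of 2 neuropilins (higher), 3 of 4 tested EphA receptors (1 higher, 2 lower), 1 of 5 EphB receptors (lower), the 1 tested Slit (lower) and 2 of 4 Robos (1 higher, 1 lower). None of the 7 tested ephrins was called with all libraries in the blocked fit, but *EFNB1* and *EFNB2* were called higher without the combination library of experiment 1 (adjusted p of 0.0307 and 0.0338) or of experiment 2 (0.0281 and 0.0365), and *PLXND1* was called higher without the former (0.0402). In 8 of the 16 genes the call stood without any single one of the 12 libraries, namely *EPHA3*, *EPHA7*, *EPHB3*, *NRP2*, *PLXNB3*, *SEMA3F*, *SEMA6B* and *SEMA7A*. The libraries that decided the other 8 are named with each gene. With all 4 libraries of experiment 3 left out, 6 genes were called (12.5%, against 2.96% of all genes), namely *EPHA3*, *EPHA7*, *EPHB3*, *NRP2*, *SEMA3F* and *SEMA7A*, while *PLXNB3* and *SEMA6B* had an adjusted p of 0.052 and 0.0561. For 12 of the 48 genes (25%, 6 higher and 6 lower) the RGZ and vehicle libraries did not overlap, which held for 16.8% of all genes. For a single gene the exact permutation test of 3 against 3 libraries cannot give a p below 0.1.

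**Figure D2:**
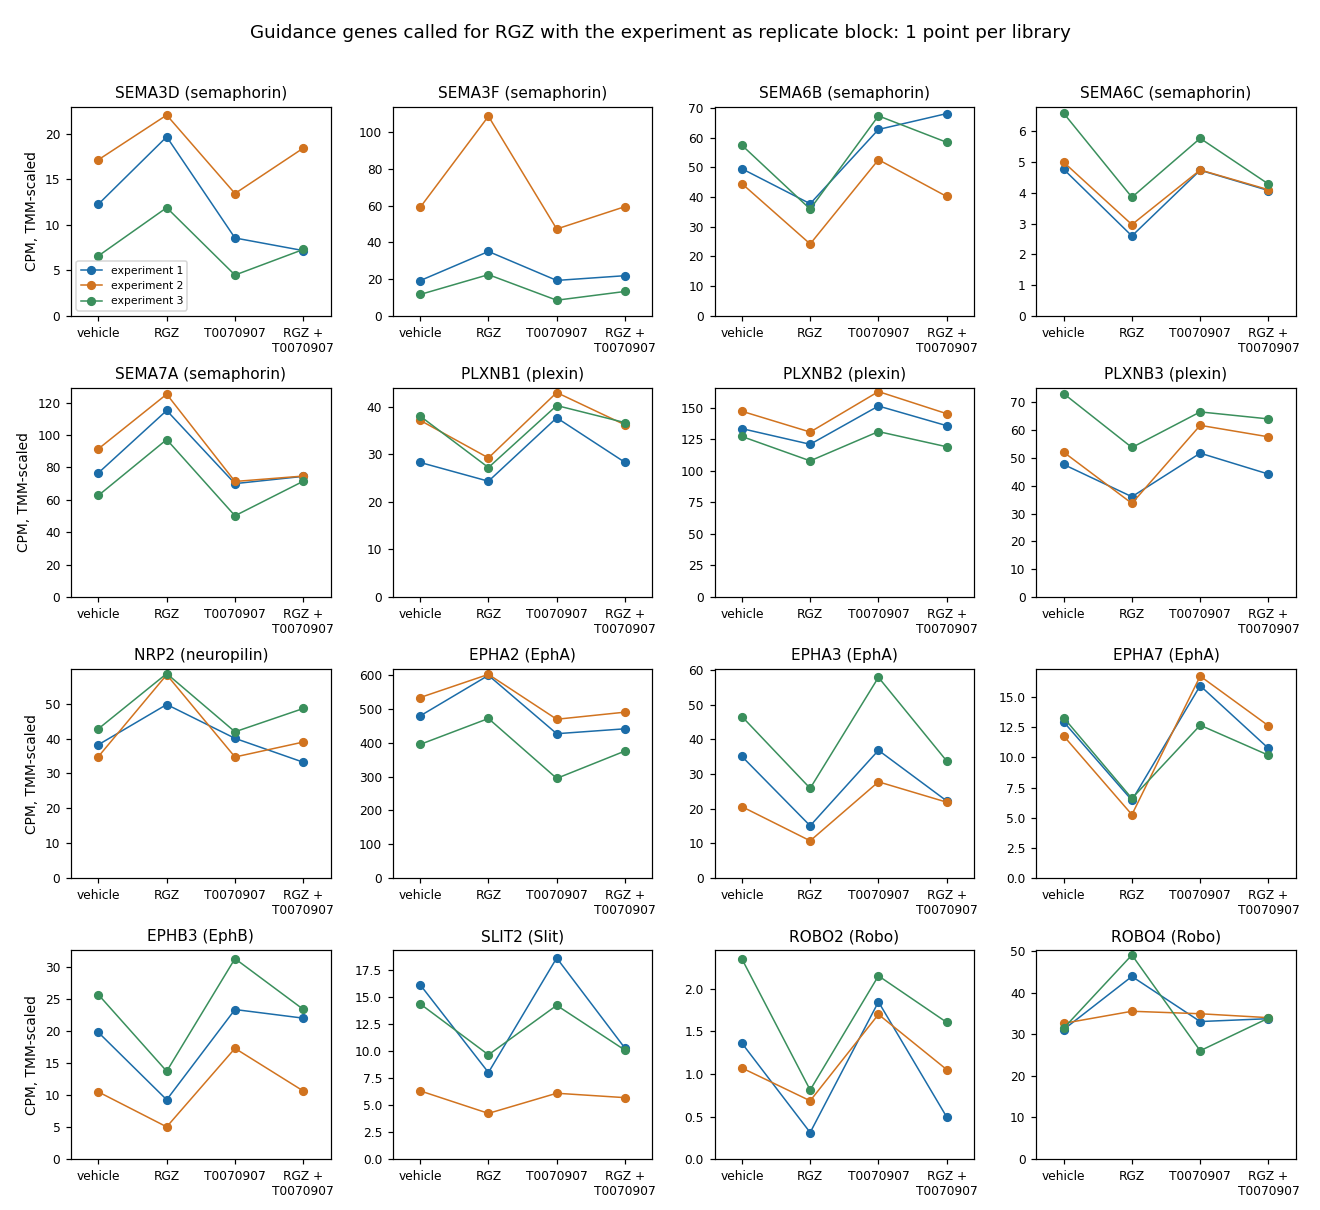
CPM of every library for the 16 guidance genes called for RGZ against vehicle with the replicate block; each panel is a gene, the x axis gives the 4 conditions, and lines join the libraries of an experiment. In every panel all 3 lines move the same way from vehicle to RGZ, which the choice of genes by the blocked fit favours. The experiments themselves can lie far apart, as for *SEMA3F*, where experiment 2 reached 109 CPM with RGZ and experiment 3 reached 22.4 CPM.

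Among the ligands, *SEMA3F*, a secreted semaphorin that signals through *NRP2*, had 19.2, 59.0 and 11.6 CPM in vehicle and 35.0, 109 and 22.4 CPM with RGZ in experiments 1, 2 and 3. Experiment 2 was the highest in both conditions, so the groups overlapped although RGZ was higher within each experiment, by 1.83, 1.84 and 1.93 times. The log2 fold change was 0.89 ± 0.09 (SE) with the block, adjusted p = 2.92e-06, and the adjusted p was 0.748 without it. *SEMA7A*, which binds *PLXNC1* and integrins, had 76.6, 91.5 and 62.7 CPM in vehicle and 115, 125 and 97.2 CPM with RGZ. All 3 RGZ libraries lay above all 3 vehicle libraries. Its log2 fold change was 0.55 ± 0.08, with an adjusted p of 1.34e-04 with the block and 0.142 without it.

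*SEMA3D*, another class 3 semaphorin, had 12.3, 17.1 and 6.59 CPM in vehicle and 19.6, 22.0 and 11.9 CPM with RGZ. The groups overlapped, and each RGZ library was above the vehicle library of its experiment. Its log2 fold change was 0.60 ± 0.16 (adjusted p = 0.0247 with the block, 0.722 without). The call was lost without RGZ 1, RGZ 3, vehicle 1, vehicle 2 or vehicle 3, with adjusted p of 0.19, 0.105, 0.0505, 0.0871 and 0.126.

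The transmembrane class 6 semaphorins *SEMA6B* and *SEMA6C*, ligands of A-type plexins, fell. *SEMA6B* had 49.5, 44.5 and 57.4 CPM in vehicle and 37.7, 24.2 and 35.9 CPM with RGZ, and *SEMA6C* had 4.77, 5.00 and 6.59 CPM in vehicle and 2.60, 2.97 and 3.86 CPM with RGZ. For both genes all RGZ libraries lay below the lowest vehicle library. The log2 fold change was -0.64 ± 0.10 for *SEMA6B* (adjusted p = 3.10e-04 with the block, 0.232 without). For *SEMA6C* it was -0.79 ± 0.18 (0.00619 with the block, 0.101 without), and without vehicle 3 the adjusted p was 0.0586.

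*SLIT2*, a secreted ligand of *ROBO1* and *ROBO2*, had 16.1, 6.31 and 14.4 CPM in vehicle and 8.01, 4.22 and 9.64 CPM with RGZ. Experiment 2 was low in both conditions and the groups overlapped, but each RGZ library was below the vehicle library of its experiment. The log2 fold change was -0.74 ± 0.15 (adjusted p = 0.0031 with the block, 0.61 without), and without RGZ 1 the adjusted p was 0.061. *SEMA3B*, the semaphorin with the highest level per kb, had 135, 191 and 189 CPM in vehicle and 128, 180 and 174 CPM with RGZ and was not called. The same was true of *EFNA1*, with 20.2, 23.8 and 20.0 CPM in vehicle and 18.2, 28.4 and 19.7 CPM with RGZ. *EFNB2* had 46.8, 42.8 and 46.6 CPM in vehicle and 50.6, 53.3 and 56.8 CPM with RGZ, which did not overlap, and its adjusted p was 0.0986 with the block.

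Among the receptors, *EPHA7*, an Eph receptor for A-class ephrins, had 12.9, 11.8 and 13.3 CPM in vehicle and 6.45, 5.25 and 6.60 CPM with RGZ. The 3 RGZ libraries lay close together and below all vehicle libraries, at 0.498, 0.446 and 0.496 of the vehicle library of their experiment. The log2 fold change was -1.05 ± 0.15 (adjusted p = 1.27e-04 with the block and 0.00646 without it, 6.02e-05 by DESeq2 without it). It was the only guidance gene called in both edgeR fits, and with all 4 libraries of experiment 1 or of experiment 3 left out no guidance gene was called without the block (0 of 48, against 0.0438% and 0.215% of all genes).

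*EPHA3*, a receptor for ephrin-A5, had 35.1, 20.6 and 46.6 CPM in vehicle and 15.1, 10.7 and 25.9 CPM with RGZ. The RGZ libraries were at 0.430, 0.521 and 0.555 of the vehicle library of their experiment, although the groups overlapped, since vehicle 2 was lower than RGZ 3. *EPHB3*, a receptor for B-class ephrins, had 19.8, 10.5 and 25.7 CPM in vehicle and 9.25, 5.02 and 13.7 CPM with RGZ, with ratios of 0.468, 0.480 and 0.534. The log2 fold change of *EPHA3* with the block was -0.99 ± 0.12 (adjusted p = 1.79e-05, 0.351 without the block). *EPHB3* decreased by 1.00 ± 0.13 on the log2 scale (adjusted p = 6.09e-05 with the block, 0.417 without).

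*EPHA2* moved the other way. It had 479, 533 and 395 CPM in vehicle and 599, 602 and 471 CPM with RGZ, and each RGZ library was above its own vehicle library although the groups overlapped. Its log2 fold change was 0.25 ± 0.06 (adjusted p = 0.0134 with the block, 0.661 without), and the call was lost without RGZ 1, RGZ 3 or vehicle 1 (0.0879, 0.0954 and 0.0828). Its share of the summed per-kb level of the Eph receptors was 84.3% ± 3.29 with RGZ, against 78.6% ± 5.11 in vehicle. *EPHB4* had 67.9, 71.2 and 66.7 CPM in vehicle and 64.1, 69.9 and 65.9 CPM with RGZ, overlapping and not called.

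*NRP2*, the co-receptor of *SEMA3F* and *VEGFC*, had 38.3, 34.9 and 42.8 CPM in vehicle and 49.8, 58.3 and 58.7 CPM with RGZ. All RGZ libraries were above all vehicle libraries. Its log2 fold change was 0.52 ± 0.09 (adjusted p = 9.66e-04 with the block, 0.103 without, 0.0252 by DESeq2 without). *NRP1* had 92.4, 99.5 and 93.1 CPM in vehicle and 80.4, 92.8 and 84.6 CPM with RGZ, overlapping, and was not called. *NRP2* made up 26.4% ± 2.65 of the per-kb level of both neuropilins in vehicle and 36.3% ± 1.43 with RGZ.

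The 3 B-type plexins, receptors for class 4 and class 5 semaphorins, were the plexins called. *PLXNB3* had 47.7, 52.1 and 73.2 CPM in vehicle and 36.1, 33.7 and 53.8 CPM with RGZ. *PLXNB1*, the receptor for *SEMA4D*, had 28.3, 37.1 and 38.0 CPM in vehicle and 24.3, 29.2 and 27.2 CPM with RGZ. *PLXNB2* had 133, 147 and 127 CPM in vehicle and 121, 131 and 108 CPM with RGZ. For all 3 the groups overlapped and every RGZ library was below the vehicle library of its experiment. Log2 fold changes were -0.48 ± 0.10 for *PLXNB3* (adjusted p = 0.00255 with the block, 0.432 without), -0.35 ± 0.08 for *PLXNB1* (0.0102 and 0.337) and -0.18 ± 0.05 for *PLXNB2* (0.0401 and 0.59). The call of *PLXNB1* was lost without vehicle 3 (0.101) or RGZ 3 (0.08). That of *PLXNB2* stood in 3 of the 12 fits with a library left out, those without the T0070907 library of experiment 3 and the combination libraries of experiments 1 and 2, and its highest adjusted p in the others was 0.234, without vehicle 3.

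*ROBO4* and *ROBO2* moved in opposite directions. *ROBO4* had 31.1, 32.6 and 31.4 CPM in vehicle and 43.9, 35.5 and 49.0 CPM with RGZ, and *ROBO2* had 1.36, 1.07 and 2.35 CPM in vehicle and 0.312, 0.685 and 0.812 CPM with RGZ. Neither overlapped between the groups, but in *ROBO4* the library of experiment 2 was only 1.09 times its vehicle library, and *ROBO2* was near the detection floor of 3 counts with RGZ. Log2 fold changes were 0.44 ± 0.11 for *ROBO4* (adjusted p = 0.0206 with the block, 0.159 without) and -1.40 ± 0.38 for *ROBO2* (0.0269 and 0.278). Both calls were lost without vehicle 1, vehicle 3, RGZ 1 or RGZ 3, with adjusted p of 0.103, 0.109, 0.0819 and 0.199 for *ROBO4* and 0.0933, 0.188, 0.114 and 0.122 for *ROBO2*. *ROBO1* had 61.2, 56.3 and 58.7 CPM in vehicle and 50.9, 47.2 and 48.7 CPM with RGZ, which did not overlap, and its adjusted p was 0.0906 with the block. It was called lower without the combination library of experiment 1 (0.00641) or of experiment 2 (0.0287).

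Several of these genes share exon sequence with another annotated gene. *NRP2*, *ROBO4*, *EFNB2* and *SEMA3F* have an annotated gene on the opposite strand across part of an exon, and *PLXNB3* has *SRPK3* on the same strand. Whether reads were counted by strand is not given in the sources used here, so part of these counts may belong to the neighbour.

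Promoter sequences of the genes called for RGZ are shown for those that hold the 6-base site AGGTCA, to which PPARγ and RXR bind as a direct repeat with a spacer of 1 base, and for *EPHA7*, called in both fits. RefSeq promoter windows of 300 bases (250 before and 50 after the start, build GRCh38.p14) were listed for 15 of the 16 genes, *SEMA6B* being the other, with 22 windows in all. The 6-base site, on either strand, occurred in 2 of these windows, 1 of *ROBO4* and 1 of the 3 of *SEMA3F*, and in 13.8% of all 35116 windows. The direct repeat, which overlaps that site by its construction, was in none of the 22 windows and in 0.0228% of all windows. A match describes the letters only. The 250 bases before the start are given in the direction of the gene, with the 6-base site in capitals; in *SEMA3F* it is the reverse complement TGACCT, and its first base lies 66 bases before the start, against 150 bases in *ROBO4*.
*ROBO4*, chr11:124897866-124898115, minus strand: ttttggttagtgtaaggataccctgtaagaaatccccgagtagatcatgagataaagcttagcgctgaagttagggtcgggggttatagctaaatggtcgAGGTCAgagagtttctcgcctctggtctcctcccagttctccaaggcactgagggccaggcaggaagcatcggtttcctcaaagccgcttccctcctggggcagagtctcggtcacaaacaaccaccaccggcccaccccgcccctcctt
*SEMA3F*, start 3 of 3, chr3:50158769-50159018, plus strand: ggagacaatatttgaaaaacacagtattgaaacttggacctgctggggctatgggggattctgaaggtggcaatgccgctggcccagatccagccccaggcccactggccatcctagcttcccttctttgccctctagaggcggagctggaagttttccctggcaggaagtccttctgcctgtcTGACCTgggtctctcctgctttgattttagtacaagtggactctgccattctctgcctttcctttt
*EPHA7*, first start, chr6:93419560-93419809, minus strand, without the 6-base site: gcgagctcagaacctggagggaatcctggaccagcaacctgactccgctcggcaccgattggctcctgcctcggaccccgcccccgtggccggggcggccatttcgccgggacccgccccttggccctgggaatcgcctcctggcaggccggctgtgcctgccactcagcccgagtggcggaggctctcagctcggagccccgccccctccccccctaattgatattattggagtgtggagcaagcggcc

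T0070907 alone was compared with vehicle to see what the antagonist does in the absence of RGZ. No guidance gene was called by edgeR without the block (0 of 48, against 0.00740% of all genes) or with it (0 of 48, against 0.910%), and DESeq2 called 0 without the block and 1 with it. The unadjusted p was under 0.05 for 1 gene without the block (2.08%, against 3.10% of all genes) and for 13 with it (27.1%, against 9.82%). The lowest adjusted p with the block was that of *EPHA2*, 0.0649, and it had 426, 469 and 294 CPM with T0070907 against 479, 533 and 395 CPM in vehicle. Each T0070907 library was below the vehicle library of its experiment, and the groups overlapped. Without the combination library of experiment 1, 5 genes were called (10.2%, against 2.40% of all genes in that fit), namely *EPHA2*, *SEMA3A* and *SEMA7A* lower and *EPHB3* and *SEMA6B* higher; without that of experiment 2 only *EPHA2* was (adjusted p = 0.0182; 2.08%, against 1.52%). *EPHB4*, the 1 gene with an unadjusted p under 0.05 without the block, had 81.6, 77.5 and 78.3 CPM with T0070907, all above its 3 vehicle libraries, and its adjusted p was 0.185 with the block.

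Of the other ligands called in any comparison, *SEMA7A* had 70.0, 71.3 and 50.1 CPM with T0070907, *SEMA3D* had 8.55, 13.4 and 4.48 CPM and *SEMA3A* had 73.7, 115 and 47.6 CPM, the last against 87.8, 135 and 66.0 CPM in vehicle. Each of these libraries was below the vehicle library of its experiment. *SEMA6B* had 62.7, 52.5 and 67.3 CPM with T0070907, each above the vehicle library of its experiment. *SEMA6C* had 4.74, 4.74 and 5.77 CPM with T0070907 and *EFNB2* had 45.6, 38.7 and 48.7 CPM, overlapping vehicle.

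Among the receptors, *NRP2* had 40.1, 34.7 and 42.0 CPM with T0070907, *PLXNB3* 51.8, 61.8 and 66.6 CPM and *PLXNB2* 151, 163 and 131 CPM. *ROBO4* had 33.0, 34.9 and 26.0 CPM with T0070907 and *ROBO2* had 1.85, 1.70 and 2.15 CPM. All 5 overlapped their vehicle libraries, and *PLXNB2* was above vehicle in each experiment.

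With RGZ and T0070907 together, the guidance genes were compared with vehicle to see what remained. Again edgeR called none, without the block (0 of 48 and 0% of all genes) or with it (0 of 48 and 0% of all genes). DESeq2 called 0 of the 60 guidance genes without the block, and 0 of the 10 to which it gave an adjusted p with it, where 6.32% of all genes with an adjusted p were called. The unadjusted p was under 0.05 for 0 genes without the block (against 10.6% of all genes) and for 5 with it (10.4%, against 21.2%), and the lowest adjusted p with the block was 0.103. The log2 fold changes with the block lay between -0.58, in *ROBO2*, and 0.13. This count rested on the combination library of experiment 2. Without it 6 genes were called (12.5%, against 19.0% of all genes in that fit), of which *EPHA3* (-0.53), *NRP1* (-0.38), *ROBO1* (-0.32), *SEMA3C* (-0.27) and *SLIT2* (-0.58) were lower and *SEMA3B* (0.19) higher on the log2 scale, and without vehicle 2 *EPHA3* and *NRP1* were (adjusted p of 0.0332 and 0.0321; 4.08%, against 6.38%). *NRP1* had 64.9, 96.9 and 73.3 CPM with the combination, so that experiment 2 lay close to the vehicle libraries and the other two below them.

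Adding T0070907 to RGZ was compared with RGZ alone, which shares the RGZ libraries with the first comparison, so the values stand side by side and neither list is independent of the other. Without the block *EPHA7* alone was called (2.08%, against 1.24% of all genes), and DESeq2 called 3. With the block 13 were called, 6 higher and 7 lower (27.1%, against 11.4% of all genes). *EPHA7* had 10.7, 12.6 and 10.2 CPM with the combination, against 6.45, 5.25 and 6.60 CPM with RGZ. All 3 combination libraries were above all RGZ libraries, and the log2 fold change was 0.87 ± 0.15 (adjusted p = 9.09e-04 with the block, 0.0171 without). Without the block the call was lost when RGZ 1, RGZ 2, RGZ 3 or the combination library of experiment 1 or 2 was left out, with adjusted p of 0.055, 0.0821, 0.0555, 0.0636 and 0.0634.

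Of the other receptors called lower for RGZ, *EPHB3*, *EPHA3*, *PLXNB3* and *PLXNB1* were called higher when T0070907 was added, and *PLXNB2* and *ROBO2* were not called. *EPHB3* had 22.0, 10.6 and 23.4 CPM with the combination, a log2 fold change of 1.00 ± 0.13 from RGZ (adjusted p = 6.06e-05 with the block) and of 0.00 ± 0.12 from vehicle. *EPHA3* had 22.2, 21.9 and 33.8 CPM, 0.62 ± 0.12 above RGZ on the log2 scale (adjusted p = 0.00241 with the block) and 0.37 ± 0.11 below vehicle, where its adjusted p was 0.105. Both genes overlapped between the groups, and each combination library was above the RGZ library of its experiment. *PLXNB3* had 44.2, 57.6 and 64.1 CPM with the combination and *PLXNB1* 28.3, 36.2 and 36.6 CPM, with log2 fold changes from RGZ of 0.43 ± 0.10 (adjusted p = 0.00614) and 0.32 ± 0.08 (0.0167). These plexin calls were lost without RGZ 2 (0.0568 for *PLXNB3*, 0.054 for *PLXNB1*), and that of *PLXNB1* also without RGZ 3 (0.109) or the combination library of experiment 3 (0.0943).

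Of the 6 genes called higher for RGZ, 5 were called lower when T0070907 was added, and *ROBO4* was not called. *SEMA3F* had 21.9, 59.4 and 13.3 CPM with the combination, against 35.0, 109 and 22.4 CPM with RGZ, a log2 fold change of -0.79 ± 0.09 (adjusted p = 1.05e-05 with the block). The combination was at 0.624, 0.547 and 0.592 of RGZ in experiments 1, 2 and 3, although the groups overlapped. *SEMA7A* had 74.5, 74.7 and 71.5 CPM, all below the RGZ libraries (-0.60 ± 0.08, adjusted p = 5.60e-05). *NRP2* had 33.2, 39.0 and 48.7 CPM, also all below RGZ (-0.47 ± 0.09, adjusted p = 0.00253), and *EPHA2* had 441, 490 and 375 CPM (-0.36 ± 0.06, adjusted p = 7.89e-04). *SEMA6B*, which had fallen with RGZ, had 68.1, 40.2 and 58.4 CPM, all above RGZ (0.76 ± 0.10, adjusted p = 4.78e-05).

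Called for this comparison with the block, besides, were *SEMA3D* (-0.73 ± 0.16, adjusted p = 0.00706), *EFNB2* (-0.38 ± 0.09, 0.00705) and *SEMA3A*, the ligand of *NRP1* (-0.30 ± 0.09, 0.0436). *EFNB2*, the ephrin that binds *EPHB4*, had 42.7, 33.1 and 48.3 CPM with the combination, all below the RGZ libraries, and without RGZ 2 its adjusted p was 0.0603. *SEMA3D* had 7.16, 18.4 and 7.29 CPM, overlapping RGZ, and its call was lost without RGZ 1 (0.071). *SEMA3A* had 63.0, 127 and 65.5 CPM with the combination and 95.1, 138 and 78.0 CPM with RGZ. The groups overlapped, and the call was lost without RGZ 1, RGZ 3, the combination library of experiment 1, T0070907 2 or vehicle 3 (0.176, 0.208, 0.168, 0.0611 and 0.068). *SLIT2*, *ROBO2*, *SEMA6C* and *PLXNB2*, lower for RGZ, and *ROBO4*, higher for RGZ, were not called when T0070907 was added, with adjusted p of 0.325, 0.232, 0.199, 0.0772 and 0.0602. With the combination *SEMA6C* had 4.08, 4.10 and 4.29 CPM, *ROBO2* 0.494, 1.05 and 1.61 CPM, *PLXNB2* 136, 145 and 119 CPM and *ROBO4* 33.7, 34.0 and 33.9 CPM. *SEMA6C* stood above and *ROBO4* below all 3 RGZ libraries, and *ROBO4* was called without RGZ 2 (0.0071) or T0070907 3 (0.0332). Further genes were called with a library left out, namely *EFNA4* and *SEMA3B* without the combination library of experiment 2, *EFNB1* and *SEMA6A* without that of experiment 3, *PLXNA4* without that of experiment 1 and *PLXNA2* without RGZ 1.

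**Figure D3:**
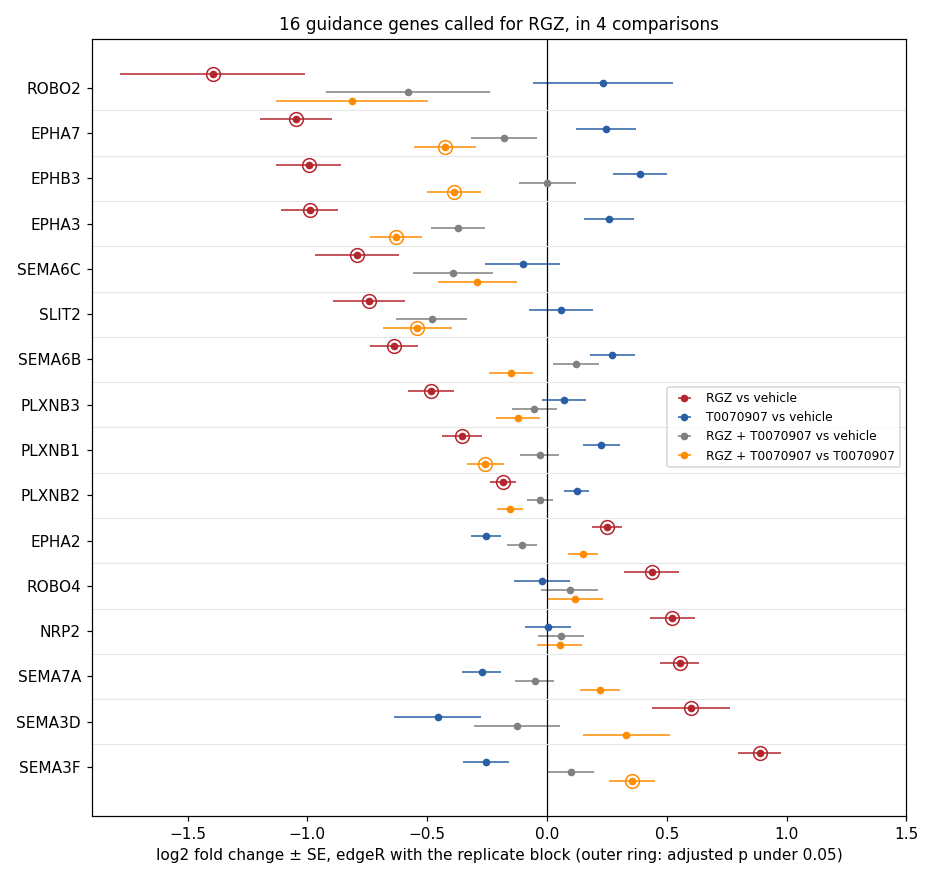
Log2 fold change with its SE from edgeR with the replicate block for the 16 guidance genes called for RGZ, in 4 comparisons; rings mark an adjusted p under 0.05, and comparisons with vehicle share its 3 libraries. RGZ against vehicle reaches from -1.40 in *ROBO2* to 0.89 in *SEMA3F*, and no gene has a ring for T0070907 or for the combination against vehicle.

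The combination compared with T0070907 alone gives the change with RGZ in the presence of the antagonist, and shares no library with RGZ against vehicle. No guidance gene was called without the block (0 of 48, against 0.0370% of all genes). With the block 6 were called (12.5%, against 8.76% of all genes), 1 higher and 5 lower. The unadjusted p was under 0.05 for 2 genes without the block (4.17%, against 15.0% of all genes) and for 15 with it (31.25%, against 27.8%). DESeq2 called 0 of 11 guidance genes with an adjusted p without the block (against 1.95% of all genes). With the block it called 2 of 36 (5.56%, against 9.08%). All 6 genes called by edgeR were among the 16 called for RGZ against vehicle (37.5% of those 16 and 100% of these 6). Over all genes, 410 were called in both comparisons, 32.6% of the 1258 called for RGZ against vehicle and 34.6% of the 1185 called here. All 16 had the same sign in both comparisons, as had 93.4% of the 1258 genes.

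*EPHA3* had 36.9, 27.7 and 57.9 CPM with T0070907 and 22.2, 21.9 and 33.8 CPM with the combination. The combination was lower within each experiment and the groups overlapped. Its log2 fold change was -0.63 ± 0.11 (adjusted p = 0.00274 with the block). *SLIT2* had 18.6, 6.09 and 14.2 CPM with T0070907 and 10.3, 5.68 and 10.1 CPM with the combination, -0.54 ± 0.14 on the log2 scale (adjusted p = 0.0294). *SLIT2* was lower in each experiment, but in experiment 2 by a factor of only 0.933.

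*EPHA7* had 15.9, 16.7 and 12.7 CPM with T0070907 and *EPHB3* had 23.3, 17.3 and 31.3 CPM, so that *EPHA7* did not overlap the combination and *EPHB3* did. The log2 fold changes were -0.43 ± 0.13 (adjusted p = 0.0471) and -0.39 ± 0.11 (0.0426). *PLXNB1* had 37.7, 43.0 and 40.2 CPM with T0070907, all above the combination (-0.26 ± 0.08, adjusted p = 0.0494). *SEMA3F*, with 19.3, 47.3 and 8.53 CPM, was the 1 gene higher with the combination (0.35 ± 0.10, adjusted p = 0.0334), in each experiment but with overlap.

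None of these 6 calls stood without every library in turn. Without the combination library of experiment 3 all 6 were lost, with adjusted p of 0.0675 for *EPHA3*, 0.137 for *SLIT2*, 0.176 for *EPHA7*, 0.226 for *EPHB3*, 0.114 for *PLXNB1* and 0.122 for *SEMA3F*. In that fit 0.775% of all genes were called. The library left out there also had the highest combination levels of *ANGPTL4*, *PDK4* and *PLIN2*. The part of this in the calls was not tested. At most 3 guidance genes were called without vehicle 3 (2 genes, or 4.08%, against 5.38% of all genes), RGZ 1 or RGZ 3 (3 genes each, or 6.25%, against 5.58%), T0070907 1 (2 genes, or 4.17%, against 1.57%) or T0070907 2 (1 gene, or 2.08%, against 1.23%). Others were called with a library left out, namely *SEMA3A*, *SEMA3D* and *SEMA6B* without the combination library of experiment 1, *ROBO1*, *SEMA4G* and *SEMA7A* without that of experiment 2 and *PLXNA1* without T0070907 3.

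Whether the change with RGZ differed with and without T0070907 was tested as the interaction. It was called for no guidance gene by edgeR without the block (0 of 48 and 0% of all genes; unadjusted p under 0.05 for 2 genes, or 4.17%, against 3.00%) or with it (0 of 48, against 0.281% of all genes; unadjusted p under 0.05 for 11 genes, or 22.9%, against 9.79%). DESeq2 called 0 in both fits, and the lowest adjusted p with the block was 0.119, in *SEMA3F*. *EPHA7* had the smallest p without the block, with an interaction of 0.62 ± 0.20 on the log2 scale with the block (adjusted p = 0.277), followed by *NRP2* (-0.47 ± 0.13, 0.198) and *EFNB2* (-0.34 ± 0.12, 0.372). Without the combination library of experiment 1 *SEMA3F* was called (-0.55, adjusted p = 0.0321; 0.764% of all genes were), and without that of experiment 2 *SEMA6B* was (0.57, 0.0355; 1.09% of all genes were).

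The level of many guidance genes also differed between the experiments. With the 4 conditions in the model, 30 of the 48 genes differed between the 3 experiments (62.5%, against 30.5% of all genes). Without experiment 2 this held for 18 of 46 genes (39.1%, against 15.3%), and without experiment 3 for 18 of 48 (37.5%, against 13.0%). Of these 30, 2 were highest in experiment 1, 17 in experiment 2 and 11 in experiment 3. Over the 48 genes the highest experiment mean was 1.31 times the lowest at the median, and in 8 of the called genes it was over 2 times.

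*SEMA3F* had the lowest adjusted p of these, 5.45e-13, with means over the 4 conditions of 23.8, 68.6 and 14.0 CPM in experiments 1, 2 and 3. Its 4 libraries of experiment 2, from 47.3 to 109 CPM, all lay above the other 8. *PLXNA4*, an A-type plexin, was higher in experiment 2 by the greatest ratio, 6.99 times experiment 1, but at means of 0.396, 2.76 and 0.503 CPM. *EPHB1*, *EPHB3*, *EPHA3* and *SLIT2* were lowest in experiment 2, with highest experiments 2.61, 2.17, 2.03 and 2.38 times as high, and *SEMA3A* and *SEMA3D* were highest there, at 2.00 and 2.35 times experiment 3. *EPHA7*, *ROBO1*, *ROBO4* and *EPHB4* were not called for experiment, with adjusted p of 0.654, 0.755, 0.958 and 0.767. What differed between the experiments is not stated in the labels.

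**Figure D4:**
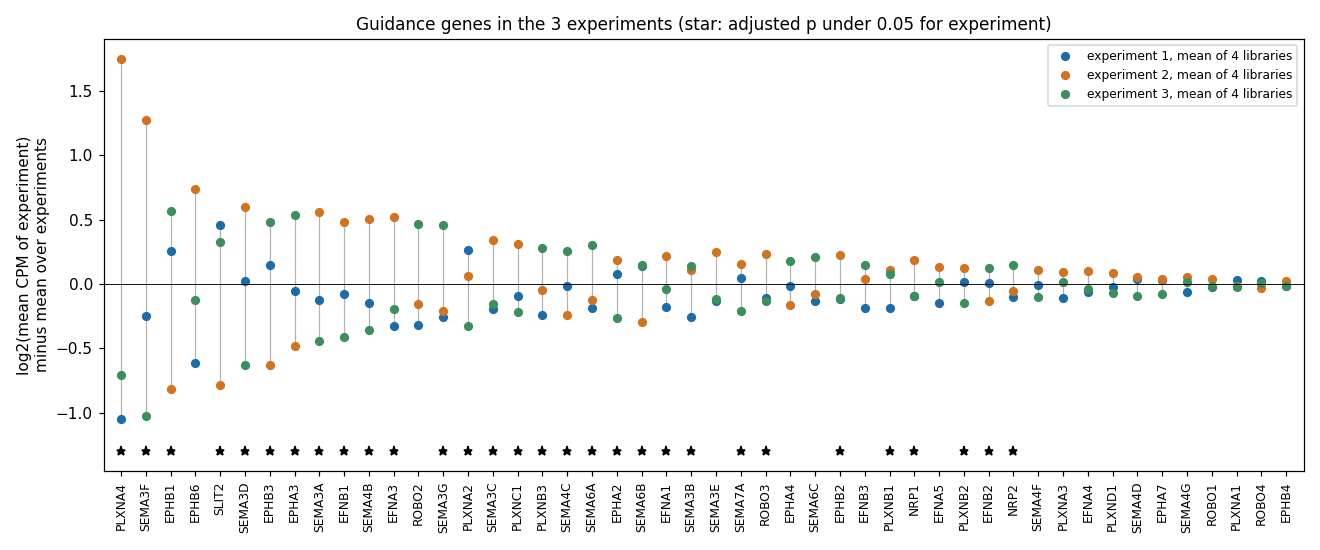
Deviation of each experiment's mean (log2 of the mean CPM over its 4 libraries) from the mean over the 3 experiments, for the 48 tested guidance genes ordered by the ratio of highest to lowest experiment; stars mark an adjusted p under 0.05 for experiment. *PLXNA4* and *SEMA3F* stand at the left with experiment 2 highest, and the genes at the right, *EPHB4* among them, hardly differ.

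The partners and effectors of these systems were described from a list of 45 genes, 40 of which were tested. For RGZ against vehicle, 7 of the 40 were called with the block (17.5%, against 9.30% of all genes), 3 higher and 4 lower, and *GPC1* alone without it (2.5%, against 1.24%); the median log2 fold change was -0.07. *GPC1*, a glypican that binds Slit2, had 46.0, 45.0 and 52.8 CPM in vehicle and 67.8, 71.2 and 69.9 CPM with RGZ, all above vehicle (0.54 ± 0.07, adjusted p = 6.17e-05 with the block, 0.00824 without). *FLT1*, a VEGF receptor that pairs with neuropilins, had 15.1, 4.88 and 21.5 CPM in vehicle and 6.24, 2.74 and 10.2 CPM with RGZ. It was lower in each experiment with overlap between the groups (-1.12 ± 0.13, adjusted p = 9.88e-06 with the block).

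The other calls for RGZ with the block were *KDR*, the main VEGF receptor (-0.93 ± 0.23, adjusted p = 0.0118), the Rac activator *TIAM1* (0.54 ± 0.09, 3.91e-04), the actin-oxidising *MICAL2* (0.67 ± 0.20, 0.0419) and *MICAL3* (-0.30 ± 0.08, 0.0163), and *SRGAP2* (-0.25 ± 0.07, 0.0213), a Robo-binding protein whose near-identical gene copies make its count uncertain. With T0070907 added to RGZ, 5 of 40 were called with the block (12.5%, against 11.4% of all genes), 1 higher and 4 lower, and none without it (against 1.24%). *FLT1* was higher (0.86 ± 0.13), and *GPC1* (-0.33 ± 0.07), *TIAM1* (-0.51 ± 0.09), *MICAL2* (-1.15 ± 0.21) and *SRGAP1* (-0.69 ± 0.12) were lower. For the combination against T0070907, 8 were called with the block (20%, against 8.76% of all genes) and 0 without it (against 0.0370%). Of these 8, 2 were higher, *GPC1* (0.46 ± 0.07) and *TIAM1* (0.35 ± 0.09). The 6 lower were *FLT1* (-0.63 ± 0.11), *SRGAP2* (-0.34 ± 0.07), *ARHGEF11* (-0.31 ± 0.07), *MICAL3* (-0.31 ± 0.07), *FARP1* (-0.26 ± 0.07) and *MYO9B* (-0.19 ± 0.05). Without the combination library of experiment 3, 0.775% of all genes were called in this comparison. Whether the listed genes stayed called with libraries left out is not given here. None of the 40 was called in either fit for T0070907 or for the combination against vehicle, or for the interaction.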

How the data were processed

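RNA of 12 libraries (4 conditions, 3 independent experiments) was measured by TruSeq RNA sequencing. The authors deposited raw read counts per gene, listed by NCBI gene number, without normalization; per the labels the build was hg19, and the aligner, counter, annotation and strand setting are not given in the sources used here. The values were checked to be 0 or above, totals differed between libraries, and the table held 0 columns of other samples. Symbols were found for 23538 of 23705 genes.

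Counts were fitted in R 4.3.3 with edgeR 4.0.16 (TMM scaling, filterByExpr, quasi-likelihood test of 4 groups, all 12 libraries), and p-values were adjusted by Benjamini-Hochberg over 13522 tested genes; genes under 0.05 were called. The SE is the size of the log2 fold change divided by the square root of F. The same fit was made with the experiment number as replicate block. The sample titles carry this number and the series describes 3 independent experiments; deviations of same-numbered libraries correlated on average at 0.554 (0.0793 to 0.758, 17 of 18 pairs over 0.1). The common dispersion was 0.0193 without the block and 0.00333 with it. DESeq2 1.42.0, other filters, size factors, a stricter threshold and leaving out libraries were alternatives; those combined with the block, other than leaving out libraries, were added after seeing the data. CPM values are TMM-scaled, and per-kb values use the longest GENCODE 29 transcript. Fits were tested on simulated data.

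Members and lists were chosen with earlier results of these data known. Named with every library's value are members called in any contrast in either fit; also named are the highest per kb in vehicle of each class and the 3 with the smallest unblocked interaction p; effectors are named where called. Genes named for low counts, for neighbouring levels, for calls made or lost without a library or for differences between experiments were chosen after their values were seen.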

Additional observations from a re-analysis of the deposited data

How the results depend on the processing

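Without the block the count of called genes was 1 for RGZ against vehicle and 1 for the combination against RGZ, and with the replicate block these counts were 16 and 13; for the combination against T0070907 they were 0 and 6. In edgeR the block changed no other count of guidance genes called; in DESeq2 that for T0070907 against vehicle went from 0 to 1. Without the block, DESeq2 gave 3 and 3 for RGZ against vehicle and the combination against RGZ (6.25% and 6.38%, against 2.17% and 2.41% of all genes with an adjusted p), and for the latter a fit of only the groups compared and a threshold of 0.01 each gave 0 (against 0.313% and 0.303% of all genes). With the block, a threshold of 0.01 gave 10 for RGZ against vehicle (20.8%, against 5.15%) and 1 for the combination against T0070907 (2.08%, against 1.45%). DESeq2 gave 1 for T0070907 against vehicle (2.13%, against 0.889%) and 2 for the combination against T0070907 (5.56%, against 9.08%). Without a filter on low counts 3 of 60 genes each (5.00%) were called for T0070907, for the combination against vehicle and for the interaction, against 1.16%, 4.36% and 0.775% of all genes. DESeq2's size factors and a minimum of 10 counts changed no count by over 1.5 times. The cause of these differences was not tested.

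With single libraries or whole experiments left out, the count without the block ranged from 0 to 1 for RGZ against vehicle (against 0.0438% to 1.23% of all genes). For the combination against RGZ it ranged from 0 to 2 (against 0% to 1.08%). With the replicate block it ranged from 6 to 20 for RGZ against vehicle, from 0 to 5 for T0070907, from 0 to 6 for the combination against vehicle, from 9 to 15 for the combination against RGZ, from 0 to 8 for the combination against T0070907, from 0 to 1 for the interaction and from 18 to 32 for experiment. The lowest value for RGZ, 6, was that without experiment 3 (12.5%, against 2.96% of all genes), and the highest, 20, that without the combination library of experiment 1 (40.8%, against 14.9%). The share of all genes called with the block moved as well over these fits, from 0.0740% to 2.40% for T0070907, from 0% to 19.6% for the combination against vehicle, from 3.80% to 18.9% for the combination against RGZ, from 0.133% to 24.5% for the combination against T0070907, from 0.00728% to 1.09% for the interaction and from 13.0% to 42.9% for experiment.

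Without the block *SEMA3F* turned with a single library, whose level in experiment 2 lay far above the others. Its log2 fold change ranged from -0.058 (without RGZ 2) to 1.83 (without vehicle 2) for RGZ against vehicle and from -1.66 (without the combination library of experiment 2) to 0.14 (without RGZ 2) for the combination against RGZ. For the combination against T0070907 it ranged from -0.52 (without the combination library of experiment 2) to 1.21 (without T0070907 2), and it was also below 0 without T0070907 3, at -0.086. DESeq2's size factors moved 0 of 72 mean CPM values by more than the spread between libraries. *ROBO2*, at 3 to 25 counts per library, lay near the floor of 3 counts.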
